A study of Coprinopsis cinerea with 4 samples.

Results

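The 79 genes described here had RNA reads in plenty in hyphae of the mushroom Coprinopsis cinerea and few reads in its oidia. They were chosen from the 13342 genes of the deposited count table by their counts alone. A gene was a member when both hyphae libraries held at least 100 reads, when the oidia libraries held at least 1 read between them, and when its mean normalized count was at least 64 times higher in hyphae than in oidia. A normalized count is the read count divided by the library's median-of-ratios size factor. Of the 5106 genes with at least 100 reads in both hyphae libraries, the 79 made up 1.55%. With libraries scaled by total gene counts instead, the rule would take 217 genes, among them all 79. Because the stage difference chose these genes, it is described below, and the calls of a fit over all genes are given once beside their background and support nothing.

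Hyphae are the branching filaments of a fungus, which grow at their tips, secrete enzymes and take up food from the substrate. Oidia are single-celled asexual spores that such filaments cut off, and which germinate into new hyphae. Growing filaments need wall synthesis, secretion and transport, while a spore carries the RNA it will use when growth starts again. The genes go by their locus identifiers here. No product name came with them, and so no role is stated for any of them.

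The data were 2 libraries of oidia and 2 of hyphae from strain okayama7#130, all of poly(A)-selected RNA. No allele, treatment, culture age or time is given in the labels, and nothing in them says whether the replicates came from separate cultures. A SOLiD kit served for the oidia libraries and an Illumina kit for the hyphae libraries. What differs between the stages cannot be told apart from what differs between the kits. Gene reads numbered 3546635 to 7519091 per library. The stage labels could not be checked against marker genes, since no gene of the table carries a name. In bulk RNA a small number of hyphal fragments in an oidia preparation and a low level in every oidium cannot be told apart.

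The 79 genes took a sizeable part of the hyphal gene reads and almost none of the oidia gene reads. Shares of a library's total reads do not use the size factors of the rule, so they are not on the scale of its ratios. The 79 genes held 7.44% of gene reads in both hyphae libraries (mean 7.44% ± 0.00340, SD, n = 2). In oidia they held 0.0146% of replicate 1 and 0.0127% of replicate 2 (mean 0.0136% ± 0.00137, SD, n = 2). A single gene, CC1G_10398, supplied 51.0% ± 0.558 of the hyphal reads of the set and 27.0% ± 2.87 of its oidia reads (SD, n = 2 each). The 5 genes with most hyphal reads together supplied 77.9% ± 0.204 of the hyphal reads and 73.8% ± 1.01 of the oidia reads of the set (SD, n = 2 each). The set is therefore a handful of very abundant hyphal transcripts and a long tail, with 17 genes at a mean normalized count of at least 1000 in hyphae and 31 under 300. The median mean count was 328 in hyphae and 2.21 in oidia. Over all 10805 genes with a read in both stages the medians were 74.0 and 60.5. Over the 5081 genes with at least 100 reads in both hyphae libraries and an oidia read they were 230 and 220.

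**Figure D1:**
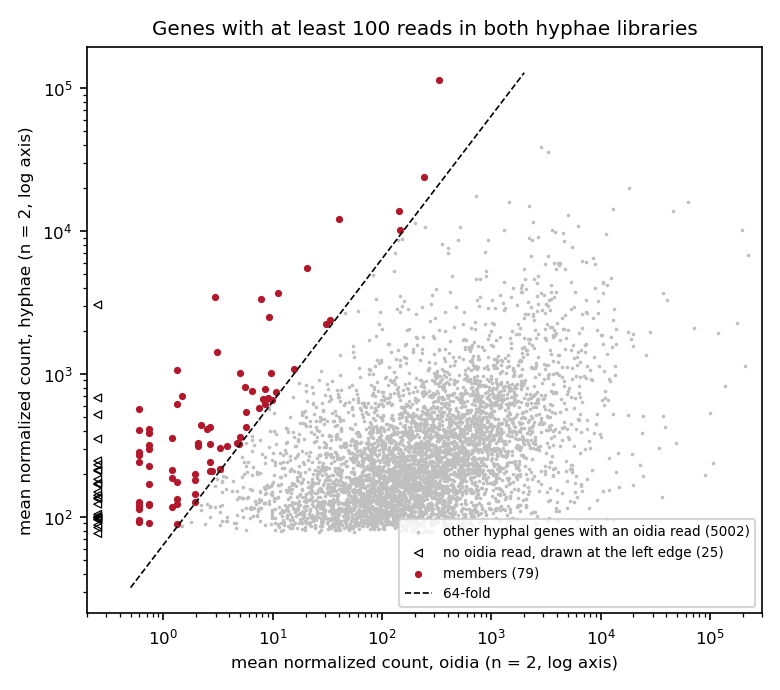
Mean normalized count in hyphae (vertical, log axis) against that in oidia (horizontal, log axis), each a mean of 2 libraries, for the 5106 genes with at least 100 reads in both hyphae libraries. Red points are the 79 members, grey points the other genes with an oidia read, open triangles at the left edge the 25 genes with no oidia read, and the dashed line is 64-fold; most members lie at the far left, at oidia counts of a few reads.

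The genes at the top of the set rank among the most abundant transcripts of hyphae. CC1G_10398 had 175396 and 133642 hyphal reads (replicates 1 and 2, the order used throughout) against 319 and 194 oidia reads. CC1G_02388 had 36609 and 27883 hyphal reads against 196 and 171 oidia reads. CC1G_13980 had 20065 and 17288 hyphal reads against 131 and 87 oidia reads. In all of these the lowest hyphal count was over 100 times the highest oidia count before scaling. Replicates differed far less than the stages, though the normalized hyphal counts of CC1G_13980 were 12838 and 14842. The normalized oidia counts of CC1G_10398 were 379 and 286. CC1G_10398 ranked 1st of all genes by normalized hyphal count, CC1G_02388 ranked 5th and CC1G_13980 ranked 12th. In oidia their ranks were 2276, 2799 and 3773, so these transcripts were not rare in oidia when set against other genes. Of all 79 genes, 2 were among the 10 with the highest normalized hyphal counts, 8 among the highest 100 and 30 among the highest 1000. None of the 79 was among the 1000 highest in oidia. The rule largely fixed this, as it keeps oidia counts at least 64-fold below hyphal counts.

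The next genes down showed how differently the oidia counts ran. CC1G_06426 had 18449 and 14518 hyphal reads against 34 and 27 oidia reads. CC1G_07379 had fewer hyphal reads, 15714 and 11921, but more in oidia, 138 and 88. Their normalized hyphal means, 12134 ± 467 and 10144 ± 127.6 (SD, n = 2 each), were closer together than their oidia means of 40.1 ± 0.487 and 147 ± 24.4 (SD, n = 2 each). CC1G_03954 had 5707 and 4378 hyphal reads against 9 and 8 oidia reads. CC1G_07533 had 5022 and 4013 hyphal reads against 7 and 5 oidia reads. CC1G_07318, with 3625 and 2889 hyphal reads, had 28 and 23 in oidia, and CC1G_07696, with 3329 and 2687, had 28 and 19. The last pair thus had more oidia reads than CC1G_03954 and CC1G_07533 in both oidia libraries, from fewer hyphal reads.

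Per length the order changed, because several of the leading genes are short. The deposited table lists most genes a second time as a classed interval with its own reads, and a level was taken as normalized reads per kb of that interval, introns included. CC1G_10398 stayed highest at 96430 ± 1426 reads per kb in hyphae (SD, n = 2). CC1G_06426, whose interval is 0.333 kb long, came next at 34755 ± 1185, ahead of CC1G_02388 at 27698 ± 451 (SD, n = 2 each). CC1G_07379 followed at 14974 ± 167 and CC1G_13980 at 11517 ± 1399 (SD, n = 2 each). These levels were separated by more than their spread. CC1G_05605, CC1G_03893 and CC1G_07533 came after them at 7434 ± 258, 7123 ± 108 and 6828 ± 304 (SD, n = 2 each), and the SD ranges of neighbours in this order overlapped. Over the 79 genes the level in hyphae ran from 38.2 reads per kb in CC1G_10862 upwards, with a median of 311. The median level in oidia was 2.60 reads per kb.

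The table names no genome build for its coordinates. In them CC1G_10398 lies on chromosome 2 from 3266054 to 3267220. CC1G_02388 lies on chromosome 3 from 3319805 to 3320647, CC1G_06426 on chromosome 4 from 2109688 to 2110020 and CC1G_07379 on chromosome 3 from 2033724 to 2034393. The interval of CC1G_13980, on chromosome 2 from 2632175 to 2632514, covers under 50% of the gene model and held 28.2% of its hyphal reads and 29.4% of its oidia reads. Its level per kb is therefore that of a part of the gene. In 4 of the 5 leading genes the interval held more than 95% of the hyphal gene reads.

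**Figure D2:**
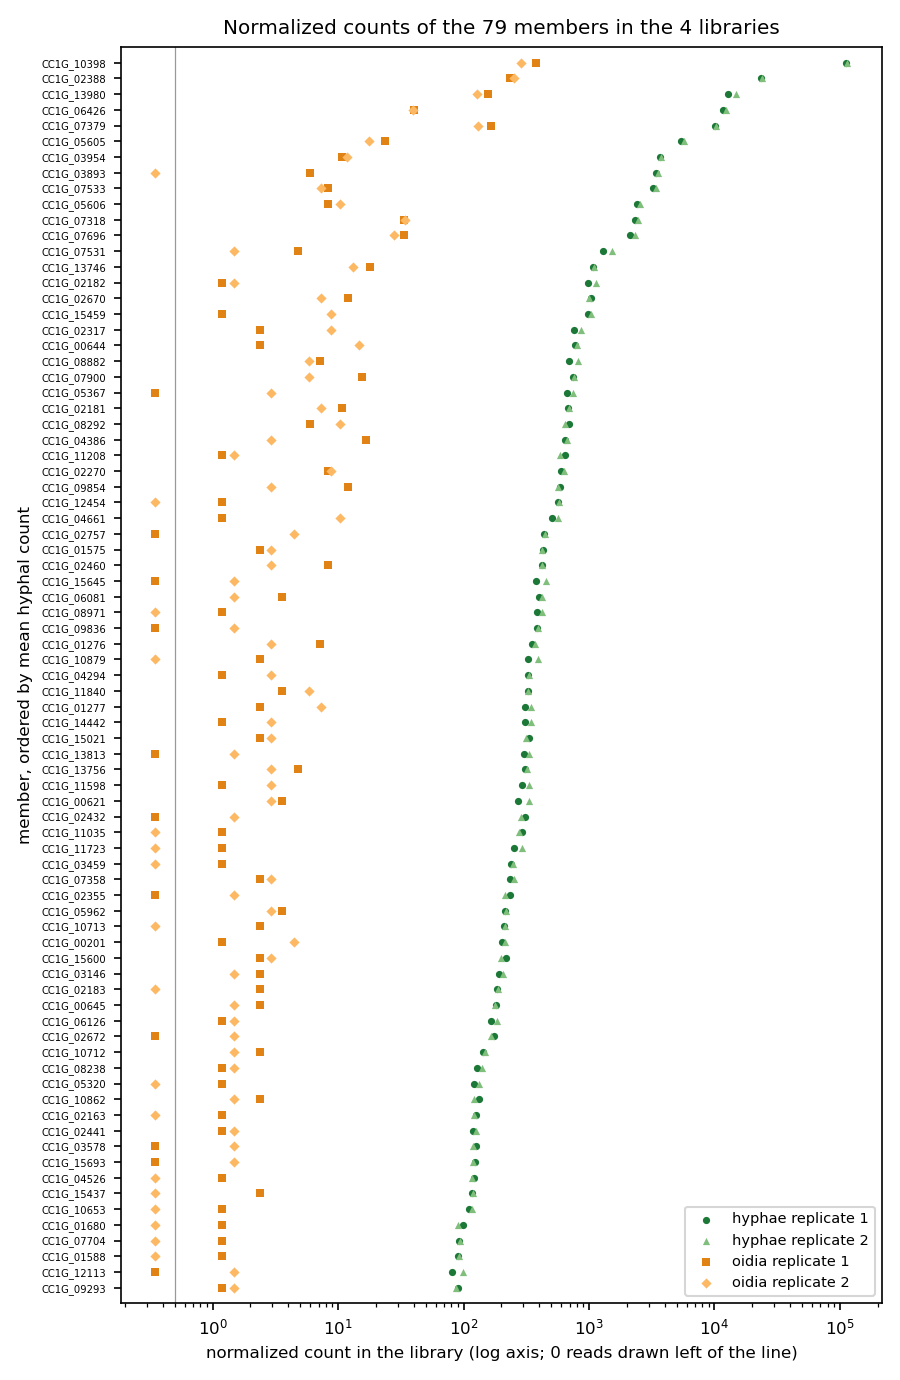
Normalized counts (log axis) of the 79 member genes, ordered by their mean hyphal count, with 1 point for each of the 4 libraries; points left of the thin line stand for 0 reads. The green hyphae points of a gene lie almost on top of each other, whereas the orange oidia points of most genes sit at a few reads or at 0.

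Most of the 79 genes were barely sampled in oidia. In the oidia libraries together 21 genes had 1 read, 11 had 2 and 8 had 3, so 40 of the 79 rested on 3 reads or fewer. A further 18 had 4 to 9 reads, 15 had 10 to 49 and 6 had 50 or more. Reads came from both oidia libraries for 51 genes, from replicate 1 alone for 17 and from replicate 2 alone for 11. The 21 genes with at least 10 oidia reads carried 90.9% of the oidia reads and 90.2% of the hyphal reads of the set. Under the same rule without oidia replicate 1, or without oidia replicate 2, 54 of the 79 stayed in. Detection in oidia was thus a matter of a few well-sampled genes and many at the edge of the sequencing depth.

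Counting error therefore limits how firmly a ratio can be stated, and replicate spread and scaling limit it further. For each gene the reads of a stage were added, divided by the summed size factors and compared between stages, which gives a scaled read ratio with a 95% exact (Clopper-Pearson) interval. The interval covers counting error only, since replicates were added together and their spread does not enter it. It treats each read as a separate molecule, though the reads carried no molecular identifiers. The rule chose the genes on these same counts and this same limit, so the 95% does not hold against 64 after that choice. Where the intervals lay is a description and supports nothing. The interval lay wholly above 64 for 26 of the 79 genes and included 64 for the other 53. It was above 64 for 8 of the 21 genes with at least 10 oidia reads, for 4 of the 18 with 4 to 9, for 5 of the 19 with 2 or 3, and for 9 of the 21 with 1. Among genes with 1 oidia read the ratio ran from 135 to 868. Such a ratio follows the hyphal count, which ran from 90.1 to 572 in these genes, because the oidia count is the same in all of them.

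Counting error was smallest in the most abundant genes, whose replicates could differ by more than it. In CC1G_10398 the normalized oidia counts were 379 and 286. Chi-square between the hyphae libraries, their difference set against counting error, was 37.2 in CC1G_10398 and 196 in CC1G_13980. The intervals below leave this spread out. CC1G_10398 had a scaled read ratio of 336, with an interval of 308 to 367. CC1G_06426 had 301 (234 to 394), CC1G_03954 had 331 (206 to 568) and CC1G_07533 had 420 (240 to 812). The intervals of these 4 genes overlap, so their ratios were not separated by counting error. CC1G_02388 and CC1G_13980 had lower ratios, 97.9 (88.4 to 109) and 95.5 (83.6 to 110). CC1G_07379, at 68.1 (59.8 to 78.0), CC1G_07318, at 71.2 (54.1 to 95.7), and CC1G_07696, at 71.3 (53.6 to 97.2), had intervals that included the limit of 64. Although well sampled, these 3 genes cannot be placed on one side of the limit by their counts under this scaling. Their place depended on the scaling as well. In the fit over all genes their log2 fold changes were 6.134, 6.195 and 6.199, in the same order. With libraries scaled by total gene counts they were 7.680, 7.737 and 7.741.

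The 10 largest ratios of mean counts all belonged to genes with 1 to 5 oidia reads. CC1G_03893 had 5323 and 4100 hyphal reads against 5 and 0 oidia reads, which gave a scaled ratio of 1050 (450 to 3235). CC1G_12454 had 887 and 671 hyphal reads against 1 and 0 oidia reads, with a ratio of 868 (156 to 34312). CC1G_02182 had 1537 and 1335 hyphal reads against 1 and 1 oidia reads, with a ratio of 800 (221 to 6610). Hyphal reads of these genes were plentiful, though the normalized hyphal counts of CC1G_02182 were 983 and 1146. The width of the intervals came from the oidia side. CC1G_08971, CC1G_15645, CC1G_09836, CC1G_11035 and CC1G_11723 had 1 oidia read each and ratios of 609 (109 to 24078), 621 (111 to 24562), 591 (106 to 23351), 434 (77.7 to 17167) and 407 (72.8 to 16088). CC1G_05367 and CC1G_11208 had 2 oidia reads each and ratios of 532 (147 to 4393) and 472 (131 to 3903). Without oidia replicate 1 no oidia read of CC1G_03893, CC1G_12454, CC1G_08971, CC1G_11035 or CC1G_11723 was left, and without oidia replicate 2 none of CC1G_15645, CC1G_09836 or CC1G_05367.

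**Figure D3:**
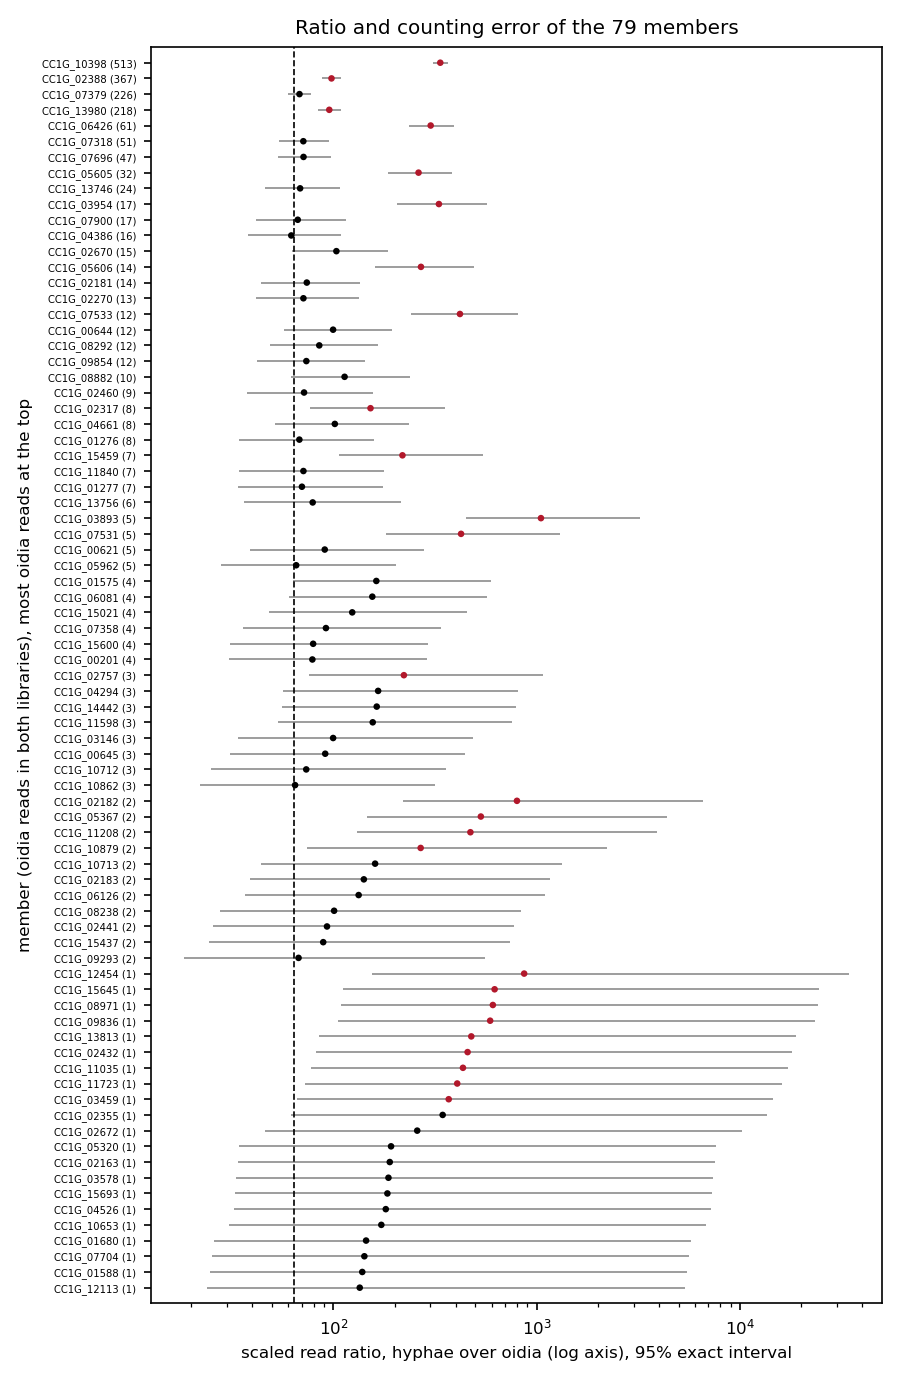
Scaled read ratio of hyphae over oidia (log axis) with its 95% exact interval for each of the 79 members, ordered by oidia reads, whose number stands in brackets. The dashed line is 64-fold and red points mark the 26 genes whose interval lies above it; intervals widen downwards and are widest for genes with 1 oidia read.

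At the limit of the rule the values ran on without a gap. Just inside lay CC1G_10862, CC1G_05962, CC1G_09293, CC1G_01277 and CC1G_04386, with ratios of mean counts of 66.0, 66.5, 66.6, 66.8 and 66.9. Just outside lay CC1G_08739, CC1G_05356, CC1G_06529, CC1G_05246 and CC1G_06093, with 63.6, 63.5, 62.5, 62.2 and 61.9. CC1G_06529 had 12973 and 10584 hyphal reads against 110 and 100 oidia reads. Its normalized hyphal mean, 8693, lay below that of CC1G_07379, 10144, and above that of CC1G_05605, 5544. Ratios of mean counts were under 100 in 30 of the 79 genes, from 100 to 300 in 29 and 300 or more in 20. On the log2 scale their median was 7.26, against 0.20 for the 5081 genes with at least 100 reads in both hyphae libraries and an oidia read.

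In a fit of the whole gene table all 79 genes passed as higher in hyphae (edgeR's quasi-likelihood test, Benjamini-Hochberg adjusted p of at most 5.90e-34). Of all 9866 genes tested 45.2% passed in this direction. The rule used the same contrast and so fixed this count, and nothing is read from it. In the authors' deposited table all 79 had an adjusted p under 0.05, where 28.4% of the 12861 genes with an adjusted p had one and were higher in hyphae by their counts.

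Replicates of hyphae differed little in fold in these genes, though in some by more than counting error. The log2 ratio of hyphae replicate 1 to replicate 2, on normalized counts, had a median of -0.05 and an SD of 0.10 over the 79 genes and ran from -0.30 to 0.14. Over all 5106 genes with at least 100 reads in both hyphae libraries the median was -0.05 and the SD 0.13. The widest gaps were in CC1G_00621, with 425 and 389 reads, CC1G_12113, with 126 and 116, CC1G_10879, with 508 and 457, CC1G_15645, with 588 and 527, and CC1G_07531, with 2040 and 1772. All of these had the higher normalized count in replicate 2. Chi-square between the hyphae libraries, which measures the difference against counting error, had a median of 0.796 over the 79 genes and 0.730 over the 5106. Its mean was 5.78 in the set and 2.00 in the 5106 genes. CC1G_13980 alone contributed 196 to the set's sum of 456, and without it the mean was 3.34.

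Replicates of oidia, with far fewer reads, lay further apart in some genes. Among the 21 genes with at least 10 oidia reads the log2 ratio of oidia replicate 1 to replicate 2 ran from -2.63 to 2.50, with a median of 0.28. In the 6 genes with at least 50 oidia reads it ran from -0.11 to 0.41. The 4 genes whose replicates were over 2-fold apart on normalized counts had 12 to 17 oidia reads in all. CC1G_00644 had 2 reads in oidia replicate 1 and 10 in replicate 2. CC1G_04386 had 14 and 2, CC1G_09854 had 10 and 2, CC1G_07900 had 13 and 4, and CC1G_08292 had 5 and 7. Neither replicate was the higher one throughout. CC1G_06426 had 34 and 27 reads and CC1G_07318 had 28 and 23, which after scaling are nearly equal.

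The set held many intervals that the table classes as paralogous. In general use, orthologous genes have a counterpart in other species, paralogous genes have copies within the genome and orphan genes have no known relative, but the sources used here do not say how the authors drew these classes. An interval covering at least 50% of the gene model was found for 78 of the 79 genes. Of these 37 (47.4%) were paralogous, 25 (32.1%) orthologous and 16 (20.5%) orphan. Among all 13148 genes with such an interval the shares were 28.2%, 44.1% and 27.7%. Among the 5061 such genes with at least 100 reads in both hyphae libraries they were 10.3%, 71.4% and 18.3%. The shares differ in size, but no test of them was made.

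Sets on either side showed other proportions. Of the 209 genes with an interval that were 16- to 64-fold higher in hyphae, 24.4% were paralogous and 51.2% orthologous. Of the 25 genes with at least 100 reads in both hyphae libraries and no oidia read, 20 were paralogous and 1 orthologous. These sets differ in abundance as well, with a median hyphal mean count of 312 in the former, 142 in the latter and 328 in the 79 genes. The sources used here do not say how reads matching several copies were treated, which leaves the counts of single paralogous genes uncertain.

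Within the set the medians of the classes were not the same, and no test of them was made. The median ratio of mean counts was 200 in the 37 paralogous genes, 154 in the 16 orphan genes and 91.5 in the 25 orthologous genes. Median hyphal levels were 372, 473 and 218 normalized reads per kb in the same order, and median oidia levels 2.35, 3.05 and 2.24. Both quantities were used by the rule and are given as a description. Of the genes with at least 10 oidia reads 11 were paralogous, 6 orthologous and 3 orphan, and the other one, CC1G_13980, was in no class. The median interval was 0.851 kb long in paralogous, 1.09 kb in orphan and 1.14 kb in orthologous genes. Over all classes it was 1.11 kb in the 78 genes, against 1.74 kb in the genes with at least 100 reads in both hyphae libraries and 1.45 kb in all genes. The shortest, of CC1G_14442, spans 0.214 kb and the longest, of CC1G_11208, spans 5.78 kb.

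**Figure D4:**
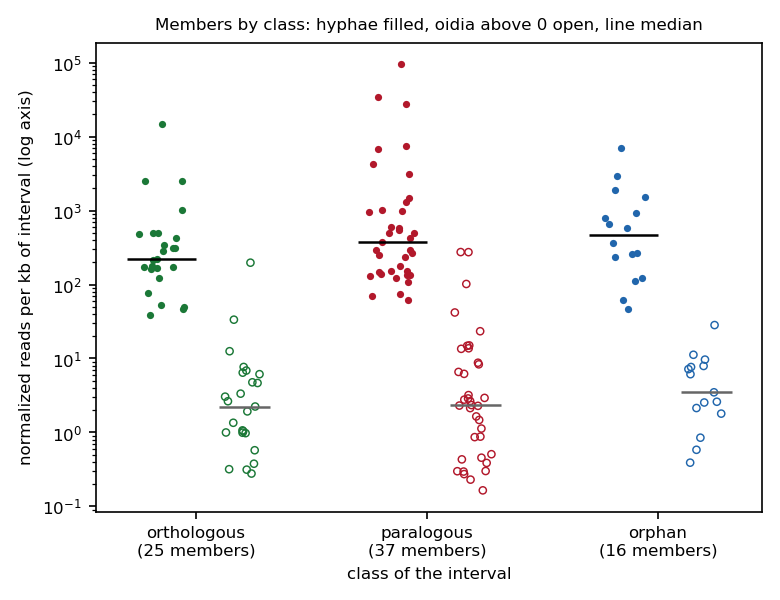
Normalized reads per kb of interval (log axis) for the 78 classed members, split by the table's class of the interval. Filled points are hyphae means and open points oidia means above 0 (n = 2 libraries each), and lines are medians, 218, 372 and 473 reads per kb for orthologous, paralogous and orphan genes in hyphae; the 3 classes overlap over most of their range.

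Members lay side by side in 5 places of the genome. With gene order taken from the RefSeq gene list of assembly CC3, 11 of the 79 genes (13.9%) had a member as direct neighbour, as did 153 of the 13231 genes with a chromosome position (1.16%). Allowing 1 gene in between raised the number to 16, and allowing 4 left it at 16. No test of this clustering was made. Near copies that lie side by side could share reads, which was not tested.

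The run with the most hyphal reads lies on chromosome 13 and holds CC1G_05605 and CC1G_05606, both paralogous. CC1G_05605, from 159784 to 160372, had 8461 and 6611 hyphal reads against 20 and 12 oidia reads. CC1G_05606, from 161407 to 161898, had 3780 and 2998 hyphal reads against 7 and 7 oidia reads. Their scaled read ratios were 262 (186 to 384) and 270 (161 to 494), so the genes were alike in ratio and not in hyphal count. The next gene on the same side, CC1G_05607, also paralogous, had 20 and 11 reads in hyphae and 0 in both oidia libraries. On the other side CC1G_05604 had 111 and 90 reads in hyphae and a ratio of mean counts of 2.80.

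On chromosome 10 CC1G_02181 and CC1G_02182 are neighbours, and CC1G_02183 follows after 1 gene with no reads in any library. All 3 are paralogous, with intervals of 0.462, 0.479 and 0.448 kb between 1860806 and 1865487. CC1G_02181 had 1057 and 803 hyphal reads against 9 and 5 oidia reads. CC1G_02182 had more in hyphae, 1537 and 1335, and fewer in oidia, 1 and 1. CC1G_02183 had 288 and 219 in hyphae and 2 and 0 in oidia. The scaled read ratio of CC1G_02181, 74.0 (44.0 to 136), and that of CC1G_02182, 800 (221 to 6610), had intervals that did not overlap. The next gene, CC1G_02184, is paralogous too and had 112 and 113 reads in hyphae and none in oidia, and CC1G_02185 had 1 read in each hyphae library. The intervals covered 68.5%, 64.8% and 61.8% of the gene models of CC1G_02181, CC1G_02182 and CC1G_02183 and held 67.0%, 67.3% and 43.0% of their hyphal gene reads.

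On chromosome 1 the paralogous genes CC1G_00644, CC1G_00645 and CC1G_13756 follow each other, with 320 and 516 bases between their intervals. CC1G_00644 had 1216 and 931 reads in hyphae, CC1G_00645 had 282 and 209, and CC1G_13756 had 480 and 372. In oidia CC1G_00644 had 2 and 10 reads, CC1G_00645 had 2 and 1, and CC1G_13756 had 4 and 2. Their scaled read ratios were 99.7 (57.0 to 193), 91.2 (31.0 to 444) and 79.1 (36.2 to 216), with overlapping intervals, although hyphal counts differed more than 4-fold. The gene before the run, CC1G_00643, had a ratio of mean counts of 1.14.

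The other pairs were orthologous by the table's class. CC1G_01276 and CC1G_01277 on chromosome 5, with 130 bases between their intervals, were alike in reads. The first had 548 and 429 hyphal reads against 6 and 2 oidia reads, and the second 480 and 400 against 2 and 5. Their ratios were 68.1 (34.4 to 158) and 70.1 (33.9 to 175). The gene that follows, CC1G_01278, had nearly the same hyphal reads, 476 and 405, but a ratio of mean counts of only 10.6. CC1G_10712 and CC1G_10713 on chromosome 9, with 1895 bases between their intervals, had 223 and 173 and, in the second gene, 328 and 248 hyphal reads. Over both oidia libraries they had 3 and 2 reads. Further members 1 gene apart were CC1G_07531 and CC1G_07533 on chromosome 6, with ratios of 425 (182 to 1309) and 420 (240 to 812), and CC1G_02670 and CC1G_02672 on chromosome 4, with 104 (62.6 to 185) and 259 (46.2 to 10234).

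**Figure D5:**
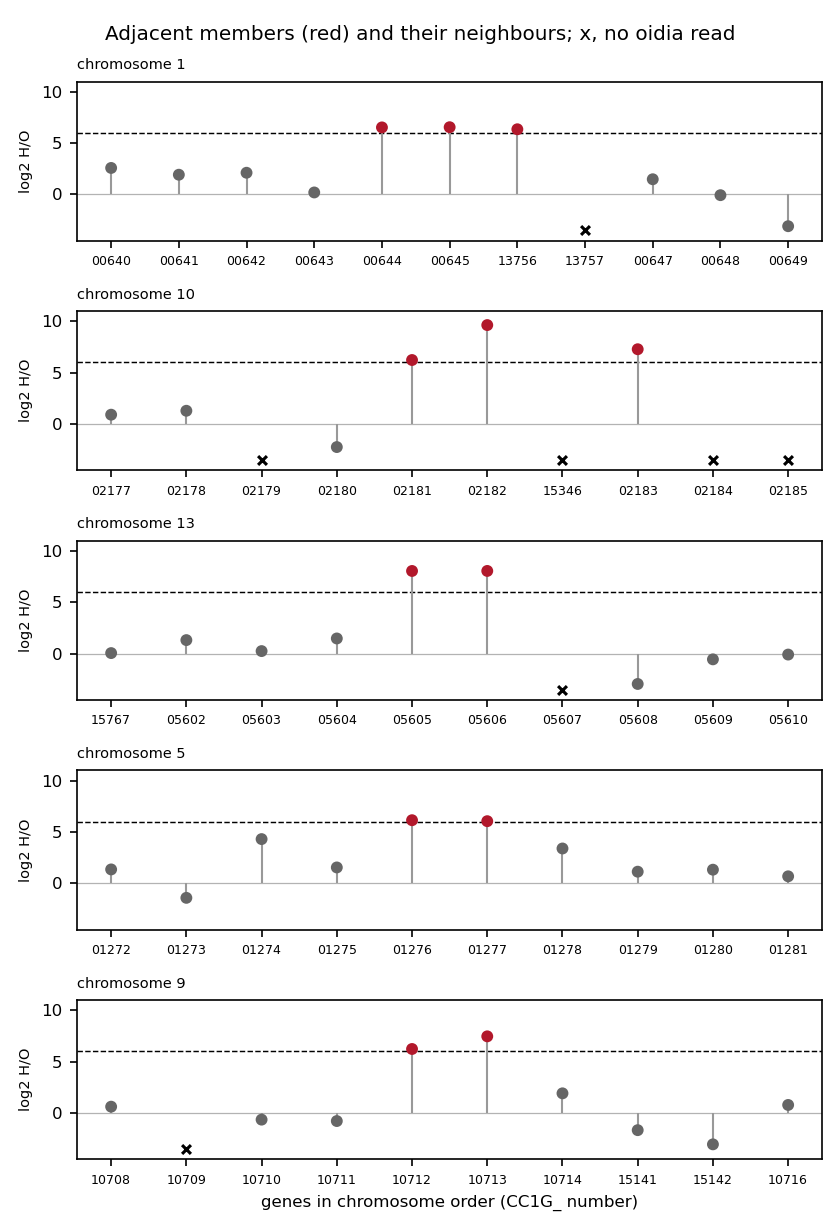
Log2 ratio of the mean normalized counts, hyphae (H) over oidia (O), for the genes of the 5 places where members (red) are direct neighbours, with 4 genes on either side in chromosome order. The dashed line is 64-fold and crosses mark genes with no oidia read; the grey neighbours lie below the dashed line in all 5 places.

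Next to members most genes had no such ratio. The 79 genes had 142 direct neighbours that were not members, of which 117 had a read in both stages. The median log2 ratio of mean counts of these 117 was 0.31, against 0.11 for all 10805 genes with a read in both stages. The 10805 include the 79 members, whereas the 117 leave members out, so the sets are unlike. Of the 117 neighbours 5.13% were at least 16-fold higher in hyphae, against 4.72% of the 10805, a share that the members raise. The highest of these ratios, 98.8, belonged to CC1G_04527 beside CC1G_04526, which had 79 and 78 hyphal reads and 1 and 0 oidia reads and so fell short of the rule on hyphal reads alone. Among the others were CC1G_02387 beside CC1G_02388, with 1358 and 1096 hyphal reads against 19 and 21 oidia reads, and CC1G_07544 beside CC1G_15600, with 2356 and 1871 against 40 and 42. A further 3 neighbours, CC1G_02184, CC1G_08239 and CC1G_10614, had at least 100 reads in both hyphae libraries and none in oidia.

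Members were spread over all 13 chromosomes and made up 0.592% of all genes. The shares by chromosome were not tested. Chromosome 10 held 12 of them, 1.55% of its 775 genes, and chromosome 7 held 1, 0.0958% of its 1044. Chromosome 6 held 7 of 723 genes and chromosome 9 held 8 of 858. Chromosome 10 also held 5 of the 10 genes with the largest ratios of mean counts, namely CC1G_02182, CC1G_12454, CC1G_11035, CC1G_11208 and CC1G_11723, all paralogous. Each of these ratios rests on 1 or 2 oidia reads.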

How the data were processed

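Per the labels' protocols, poly(A)-selected RNA was made into libraries with the SOLiD Total RNA-seq kit (oidia) or the NEBNext Ultra kit for Illumina (hyphae). TopHat, Bowtie 0.12.7 and DESeq are named in the submitters' processing notes. The sources used here do not give the counter, its strand and multimapping settings, the annotation or the genome build. The deposited counts are whole reads per gene or element and library. The deposited adjusted p-value comes from the authors' DESeq comparison.

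Members and lists were chosen with earlier results of these data known. Named genes followed a rule on counts, ratios, replicate differences, runs and nearness to the limit, which gave 46 genes, 41 of them members. Exact intervals used scipy 1.17.1. Genes were linked to classed intervals by overlap of at least 50% with RefSeq positions of assembly CC3 (13228 genes overlapped one, of which 11219 shared a start or an end with it). Those positions are not printed, and 13340 identifiers matched.

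All genes were fitted with edgeR 4.0.16 in R 4.3.3 (quasi-likelihood test, TMM, filterByExpr, no block, Benjamini-Hochberg adjusted p under 0.05). Because no label ties replicates to separate cultures, the spread behind a p-value may be technical. The alternatives were other scalings, filters and limits of the rule, DESeq2 1.42.0, a replicate block and leaving out each library. Protein, promoter and sequence-pattern lists could not be evaluated, as no sequence was used here.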

Additional observations from a re-analysis of the deposited data

How the results depend on the processing

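The rule chose the genes on the contrast that the fits test, so their calls could hardly change and say nothing of stability: 79 of 79 passed in each fit, the replicate block included (79 to 79 without 1 library), and so did the 41 named members. Of all tested genes 4455 passed as higher in hyphae, 4286 with the replicate block, 3796 to 4370 without 1 library and 7400 with total gene counts, which put 1549 lower in place of 3727. With total gene counts the median fitted log2 fold change went from 0.25 to 1.79 over the tested genes and from 6.98 to 8.44 over the 79. The labels state no pairing by replicate number. The correlation of replicate differences across genes was -0.00888, which cannot decide it, as each stage gives a single difference and the kits differ.

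Membership depended on the scaling and the limits. It was 82 with TMM factors and 217 with total gene counts, with all 79 kept in both. It was 147 with the fold limit halved and 43 with it doubled, 33 with at least 5 and 21 with at least 10 oidia reads, and 26 where the exact interval had to lie above 64 (chosen after seeing the data). Without 1 library it was 64 to 86. Leaving out either oidia library kept 54 of the 79. The share of hyphal gene reads and the median log2 ratio were taken over the genes that each setting chose, not over the same 79. The share was 7.44%, 7.77% with TMM factors, 12.4% with total gene counts and 7.10% to 7.80% without 1 library. Without CC1G_10398 it was 3.64% (chosen after seeing the data). The median log2 ratio was 7.26, 7.09 with total gene counts and 6.76 to 7.21 without 1 library. Fitted log2 fold changes of CC1G_03893 were 14.95 and 9.19 without oidia replicate 1 and 2, of CC1G_12454 12.35 and 8.82, and of CC1G_15645 8.06 and 11.94, where 14.95, 12.35 and 11.94 had no oidia read left and are not measured folds. Class shares moved little with an overlap of at least 90% (42.4% paralogous, 33.9% orthologous, 23.7% orphan). Depth in oidia limits every ratio here: 1 read is a normalized mean of 0.595 or 0.736.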

Other observations

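Position along the chromosomes was described for the 79 genes by the table's own intervals. Of the 79, 7 (8.86%) lay within 100 kb of the outermost listed interval of a chromosome, against 3.35% of the genes with at least 100 reads in both hyphae libraries and 6.90% of all genes with an interval. Within 100 kb of a listed centromere lay 3 (3.80%), against 6.82% and 5.72%. No interval of the 79 overlapped a row for a repeat or transposon, as 2.09% of all genes with an interval did and 0.118% of those with at least 100 reads in both hyphae libraries. None of these shares was tested.

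In 6 of the 78 genes (7.69%) the interval held under 80% of the hyphal gene reads, against 6.97% of the genes with at least 100 reads in both hyphae libraries. They were CC1G_05605, CC1G_02181, CC1G_02182, CC1G_02183, CC1G_04661 and CC1G_05320, whose intervals covered 61.8% to 77.9% of the gene model. Among these 6 the largest gap between the share of the model and the share of reads was in CC1G_02183, at 43.0% of the reads. In CC1G_09293 the interval held more hyphal reads than the gene row, 296 and 228 against 140 and 102. CC1G_09292, whose gene model overlaps it, had 26 and 20 hyphal reads.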
